A study of Mus musculus with 41 samples.

Results

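Epidermal stem cells of mice on a high fat diet were compared between the dark and the light phase, at zeitgeber time 16 (ZT16) and ZT4, where zeitgeber time counts the hours since the lights came on. The comparison rests on 8 arrays of the 41 in the series, 4 at ZT16 and 4 at ZT4, chosen by the time and diet in their titles, and covers 17097 genes. All arrays came from female wild type C57B6/J mice aged 15 weeks, which had eaten their diet freely for 7 weeks from 8 weeks of age. The same hours on the control diet, with 4 arrays at ZT16 and 3 at ZT4, stood beside them. The design planned 4 mice per diet and time point. Mice killed on 1 day all belonged to 1 time point, so hour and collection day cannot be told apart in any value given here. Nothing in the labels ties an array to a mouse of its own, so p-values measure the spread between arrays, which may be technical. Values are log2 levels made by the authors with RMA, which subtracts background, puts the arrays on a common scale and gives 1 value per probe set. A difference is the ZT16 mean minus the ZT4 mean on that log2 scale.

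Epidermal stem cells sit in the basal layer and the hair follicle of the skin and renew the tissue. Like most cells they hold a circadian clock, in which BMAL1 and CLOCK switch on the period and cryptochrome genes, whose proteins then hold BMAL1 and CLOCK back. The clock is set by light through the brain and by hormones and feeding, and in rodents, which are active in the dark, glucocorticoid hormones peak around nightfall. Skin stem cells are known to confine parts of the cell cycle and of metabolism to certain hours of the day.

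The labelled tissue was checked against markers of epidermal cells. The keratin gene Krt14 lay between 12.69 and 12.75 at ZT16 and between 12.53 and 12.77 at ZT4, and Krt5 between 12.67 and 12.70 at ZT16 and between 12.68 and 12.74 at ZT4. The integrin gene Itga6, the bulge keratin gene Krt15 and the basal transcription factor gene Trp63 had means above 11 at both hours, and none of these 5 genes passed the test between the hours. Markers of the hair follicle bulge gave a mixed picture, with a mean over 14 measured genes of 6.97 to 7.25 at ZT16 and 7.11 to 7.30 at ZT4. The surface marker gene Cd34 read 5.17 to 5.70 at ZT16 and 4.74 to 5.24 at ZT4, and the receptor gene Lgr5 5.30 to 5.59 at ZT16 and 5.04 to 6.14 at ZT4. Nfatc1, a bulge transcription factor gene, read 9.52 to 10.07 at ZT16 and 9.74 to 10.20 at ZT4. Among suprabasal genes, the keratin gene Krt1 read 12.44 to 12.63 at ZT16 and 12.57 to 12.70 at ZT4, and Flg, the gene of the late differentiation protein filaggrin, 4.19 to 4.48 at ZT16 and 4.20 to 4.46 at ZT4. Among 16 measured genes of basal keratins, integrins and hemidesmosomes, 0 passed in either direction, where 4.13% of all genes passed. At that share a list of this size often holds 0. The mean level of these 16 genes was 11.36 to 11.49 at ZT16 and 11.16 to 11.48 at ZT4. Signal over background is unknown for every probe set.

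No pair of the 8 arrays was identical, and correlations ran from 0.9892 to 0.9943 within an hour and from 0.9842 to 0.9911 between the hours. On the first principal component of all arrays, which held 22.3% of the variance, replicate 3 at ZT4 stood apart at -3.23, while the other ZT4 arrays lay between 12.9 and 19.0 and the ZT16 arrays between 6.29 and 14.8. The total count of called genes is given with and without this array, but not every list count is.

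At an adjusted p under 0.05 (limma, Benjamini-Hochberg over all genes), 412 genes were higher at ZT16, which is 2.41% of those tested, and 294 were lower, which is 1.72%. Together these 706 genes are 4.13%, and 3067 genes had an unadjusted p under 0.05. Most changes were small. The median size of a called difference was 0.48, and 25 of the higher and 21 of the lower genes differed by 2-fold or more. The lowest of one hour lay above the highest of the other for 949 genes with all ZT16 arrays on top (5.55%) and for 821 with all ZT4 arrays on top (4.8%). Of the called genes, 363 higher and 236 lower ones had such non-overlapping arrays. Without ZT4 replicate 3 the count was 673, of which 542 were among the 706. The count was 394 without ZT16 replicate 1, and 255 when only the 8 arrays were fitted.

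Genes known to be induced by glucocorticoids led the rises. Tsc22d3, which encodes the glucocorticoid-induced leucine zipper, read 10.27, 9.87, 9.58 and 9.53 at ZT16, against 7.19, 7.44, 7.52 and 7.18 at ZT4. Every ZT16 array lay more than 2 log2 units above every ZT4 array, and the difference was 2.48 ± 0.20 (SE), a 5.57-fold rise (adjusted p = 7.07e-10). Fkbp5, whose product is a cochaperone that restrains the glucocorticoid receptor, read 9.26, 9.39, 8.95 and 8.87 at ZT16 and 7.13, 6.96, 6.96 and 6.89 at ZT4. Its rise was 4.37-fold (adjusted p = 1.58e-05), with no overlap, and 1 of its 2 other probe sets had the same sign. Zbtb16, which encodes the zinc finger factor PLZF, read 11.31, 11.32, 10.59 and 11.16 at ZT16, against 9.80, 9.70, 9.77 and 9.63 at ZT4, a rise of 1.37 ± 0.19 (SE; adjusted p = 5e-05). Of 11 measured genes on the glucocorticoid list, 5 rose and 0 fell (45.5% higher, against 2.41% of all genes), with a list median of 0.41, where the median over all genes was 0.00. The other 2 rises were Per1, which is also a clock gene, and Mt1, which encodes a metal-binding metallothionein, at 0.26 (adjusted p = 0.0303). Mt1 and Per1 dropped out, at adjusted p between 0.0595 and 0.154, without ZT16 replicate 1 or 2, or ZT4 replicate 1, 3 or 4, and each of these 5 fits left 3 list members. This list and all others below were chosen with earlier results of these data known, so their shares only describe. Per1 counts in both this list and that of the clock repressors.

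The other 6 members did not pass. Klf9, a Kruppel-like factor gene, averaged 11.53 ± 0.18 at ZT16 and 11.12 ± 0.14 at ZT4 (SD, n = 4 each) and missed the threshold at adjusted p = 0.0524. Klf9 lay near that threshold: it passed under 8 of 17 alternatives, and 3 of its 4 other probe sets were higher at an unadjusted p under 0.05. Ddit4, an inhibitor of the growth kinase mTORC1, differed by 0.42 (adjusted p = 0.231). Sgk1, a kinase gene, differed by 0.11, and Dusp1, a phosphatase that switches off MAP kinases, by -0.03. Cdkn1a, the gene of the cell cycle inhibitor p21, differed by -0.10 and Errfi1, an inhibitor of the EGF receptor, by -0.07. The arrays of both hours overlapped for each of these 6.

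**Figure D1:**
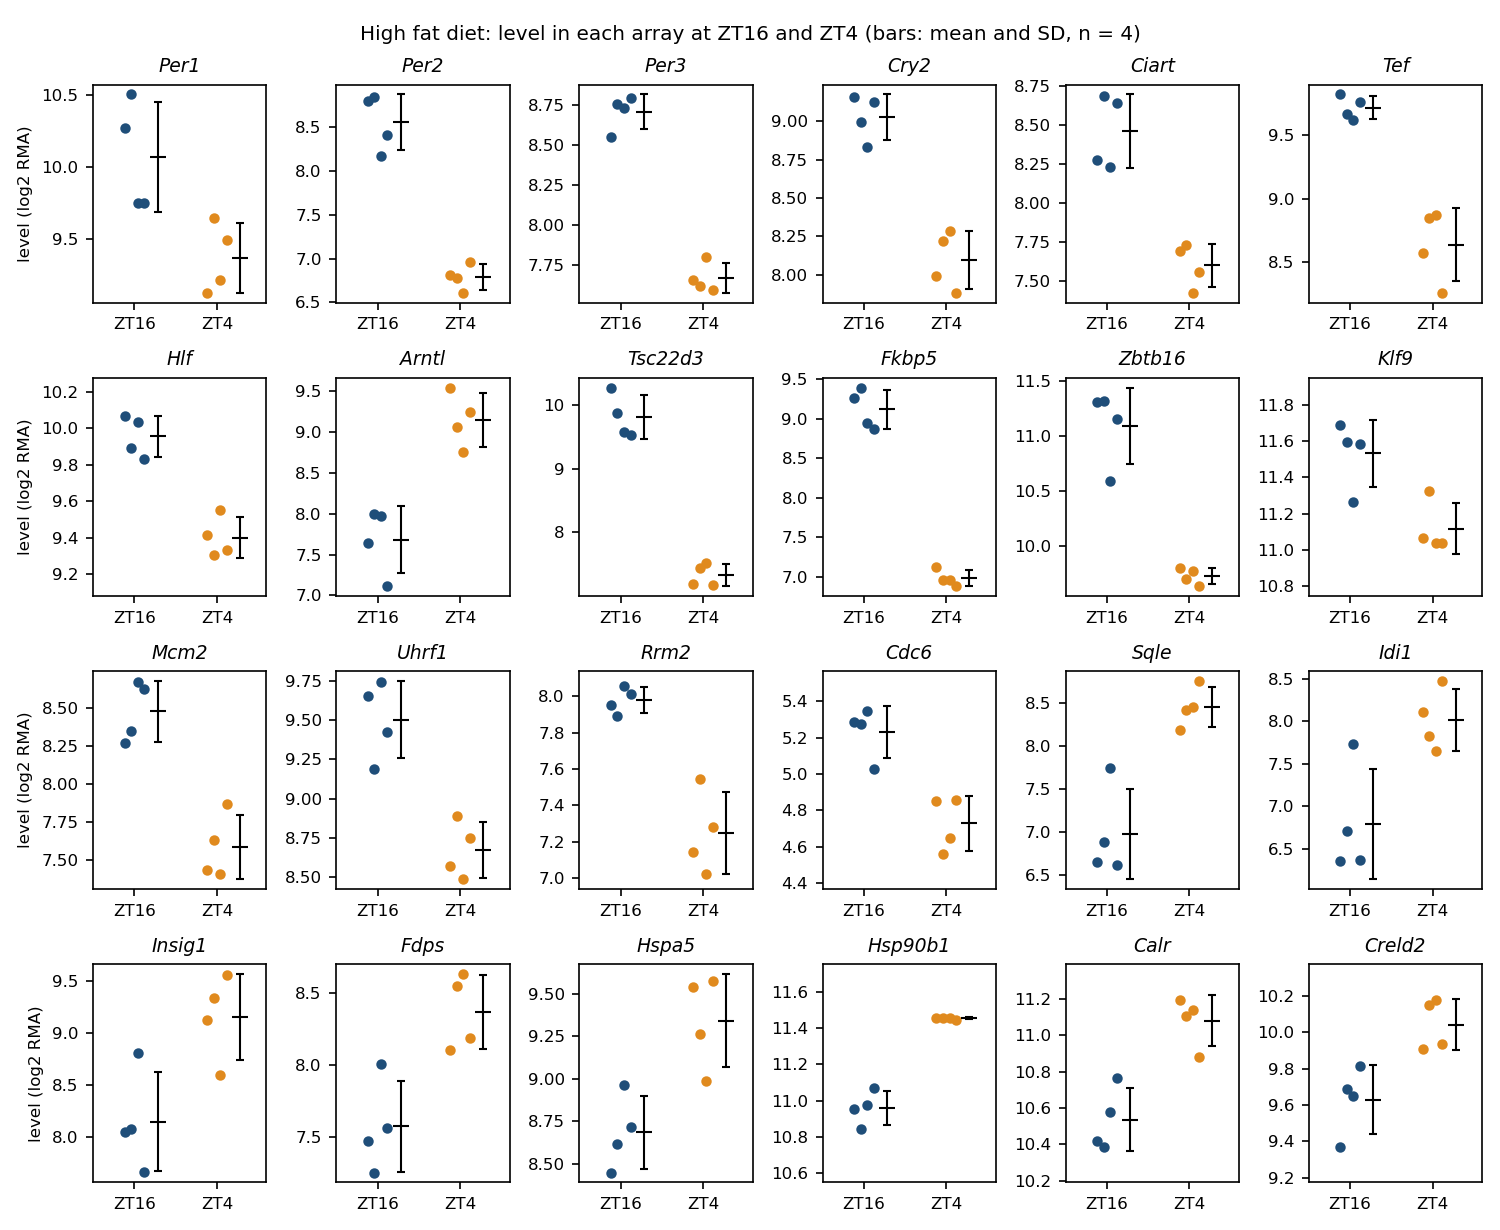
Log2 RMA level of 24 genes in each of the 4 ZT16 arrays (blue) and 4 ZT4 arrays (orange) on the high fat diet, with bars at the mean and SD; each panel has its own vertical scale. Tsc22d3, Fkbp5 and Per2 show the widest gaps between the hours, Arntl, Sqle, Idi1, Insig1, Fdps and the chaperone genes of the bottom row are lower at ZT16, and Klf9 is shown as a gene that did not pass.

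Of 11 measured genes on the clock repressor list, 5 were higher at ZT16 and 0 were lower (45.5% higher, against 2.41% of all genes), with a median of 0.48. The list also holds the casein kinase genes Csnk1d and Csnk1e, which are not repressors themselves. Per2 read 8.79, 8.84, 8.17 and 8.41 at ZT16, against 6.81, 6.78, 6.61 and 6.96 at ZT4, with no overlap and a difference of 1.76 ± 0.13 (SE), or 3.40-fold (adjusted p = 2.07e-10). Per3 read 8.55, 8.76, 8.73 and 8.79 at ZT16, against 7.65, 7.62, 7.80 and 7.60 at ZT4, a rise of 1.04 ± 0.13 (SE; adjusted p = 1.35e-05). Both encode period proteins, and all their ZT16 arrays were above all their ZT4 arrays. Cry2, a cryptochrome gene, read 9.16, 8.99, 8.83 and 9.13 at ZT16, against 7.99, 8.22, 8.29 and 7.88 at ZT4 (0.93 ± 0.11 SE, adjusted p = 7.49e-06). Ciart, which encodes a further repressor of CLOCK and BMAL1, read 8.28, 8.69, 8.23 and 8.64 at ZT16, against 7.69, 7.73, 7.42 and 7.55 at ZT4 (0.86 ± 0.10 SE, adjusted p = 2.04e-06). Neither gene's arrays overlapped between the hours. Per1 was more scattered, at 10.27, 10.51, 9.75 and 9.75 at ZT16 and 9.12, 9.64, 9.21 and 9.49 at ZT4, and its rise of 0.70 passed narrowly (adjusted p = 0.0451).

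The other 6 genes on the clock repressor list did not pass. Cry1 averaged 6.64 ± 0.26 at ZT16 and 6.22 ± 0.34 at ZT4 (SD, n = 4 each; adjusted p = 0.184). Timeless, also a replication fork gene, differed by 0.48 (adjusted p = 0.103), and its ZT16 replicate 4 and ZT4 replicate 2 both lay above their groups. The basic helix-loop-helix repressor genes Bhlhe40 and Bhlhe41 differed by -0.01 and -0.04. Csnk1d and Csnk1e, whose casein kinases mark period proteins for degradation, differed by -0.04 and 0.15.

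Arntl, the gene of BMAL1, ran the other way from the repressors. It read 7.64, 7.99, 7.97 and 7.12 at ZT16, against 9.54, 9.06, 8.75 and 9.24 at ZT4. The arrays did not overlap, and the fall was -1.47 ± 0.28 (SE), 2.77-fold lower at ZT16 (adjusted p = 0.00179). Rora, a nuclear receptor known to switch on Arntl, rose by 0.28 (adjusted p = 0.02), a call lost without ZT16 replicate 1 or 2 or ZT4 replicate 3, at adjusted p of 0.0611 to 0.0844. The Rora call was lost too with the mean of its probe sets. Clock, Npas2 and Nr1d2, which encode BMAL1's partner, a partner of like structure and the repressor REV-ERB beta, differed by 0.24, -0.07 and 0.31, and none of the 3 passed.

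The output factors of the clock followed the repressors. Tef, one of the PAR-bZIP activators that bind the D-box, read 9.82, 9.67, 9.62 and 9.76 at ZT16, against 8.57, 8.85, 8.87 and 8.26 at ZT4, a 2.11-fold rise (adjusted p = 2.99e-07). Its relative Hlf read 10.07, 9.89, 10.04 and 9.83 at ZT16, against 9.42, 9.30, 9.55 and 9.33 at ZT4, a 1.47-fold rise (adjusted p = 5.03e-05). Arrays of the hours did not overlap for either. Dbp, the third relative, read 7.91, 7.56, 7.58 and 8.11 at ZT16 and 6.99, 7.62, 7.62 and 6.99 at ZT4. The hours overlapped and its difference of 0.48 did not pass (adjusted p = 0.0942). Without ZT4 replicate 3, Dbp passed narrowly (adjusted p = 0.0498). Nfil3, which opposes these factors at the D-box, differed by -0.04.

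Sites known for these loops could be read in promoters of some of the genes that moved. Among 13514 tested genes with a RefSeq promoter window (GRCm38.p6, 250 bases before to 50 after the start), the E-box CACGTG, the site of CLOCK and BMAL1, lay in 9.04% of windows, in 45 of 327 windows of rising genes (13.8%) and in 9.01% of windows of falling ones. It lay in 5 of 17 windows of the clock genes, those of Bhlhe41, Ciart, Cry1, Per1 and Tef. The D-box core TTANNTAA, the site of Tef, Hlf and Dbp, lay in 4.14% of all windows and in 3 of the 17, those of Per3, Tef and Timeless. Both motifs read the same on either strand and do not overlap each other in the stretches below, which run 5′ to 3′ on the gene's strand with 30 flanking bases and the motifs in capitals. The 3 E-box stretches and the D-box stretch belong to genes that rose, at chr11:69098753-69098818 (Per1), chr3:95882237-95882374 (Ciart, minus strand), chr15:81802516-81802581 (Tef) and chr4:151044786-151044900 (Per3, minus strand).
Per1: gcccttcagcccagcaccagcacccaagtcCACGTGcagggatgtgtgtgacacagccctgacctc
Ciart: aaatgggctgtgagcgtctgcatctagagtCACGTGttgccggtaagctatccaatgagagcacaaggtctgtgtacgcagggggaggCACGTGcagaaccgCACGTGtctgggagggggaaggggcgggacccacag
Tef: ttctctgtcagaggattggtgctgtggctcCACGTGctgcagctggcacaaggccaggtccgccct
Per3: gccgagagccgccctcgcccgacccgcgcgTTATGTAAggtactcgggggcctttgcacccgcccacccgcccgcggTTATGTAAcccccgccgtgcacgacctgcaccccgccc
Ciart carried 3 E-boxes in its window and Per3 carried 2 D-box cores. Cry1 and Bhlhe41 carry the E-box too and did not pass, and a match is a description of the letters, not evidence of binding. Other sites were searched too. The glucocorticoid element core ACANNNTGT lay in 1 of 10 windows of the glucocorticoid list, that of Mt1. It lay in 5.5% of rising, 3.6% of falling and 5.05% of all windows. The sterol element TCACCCCAC lay in 1 of 13 windows of the cholesterol list, that of Hmgcs1, which did not pass. The CRE motif TGACGTCA lay in 1.22% of rising, 4.5% of falling and 2.7% of all windows.

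Genes of DNA replication were higher at ZT16. Of 33 measured genes of replication licensing and S phase, 14 rose and 0 fell (42.4% higher, against 2.41% of all genes), 32 had a positive difference, and the median was 0.48. Mcm2, a subunit of the replicative helicase, read 8.27, 8.35, 8.67 and 8.62 at ZT16, against 7.44, 7.63, 7.41 and 7.87 at ZT4, a 1.85-fold rise (adjusted p = 0.00482). Uhrf1, which carries DNA methylation through replication, read 9.66, 9.19, 9.74 and 9.42 at ZT16, against 8.57, 8.89, 8.49 and 8.75 at ZT4 (1.78-fold, adjusted p = 0.00668). Rrm2, a subunit of the enzyme that makes deoxyribonucleotides, read 7.95, 7.89, 8.06 and 8.01 at ZT16, against 7.14, 7.55, 7.02 and 7.28 at ZT4 (1.66-fold, adjusted p = 0.00224). No ZT4 array of these 3 genes reached the lowest ZT16 array.

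Further replication genes had the same form. Cdc6, which loads the helicase at origins, averaged 5.23 ± 0.14 at ZT16 and 4.73 ± 0.15 at ZT4 (adjusted p = 0.00104). Pola1, the catalytic subunit of the priming polymerase, averaged 7.18 ± 0.18 at ZT16 and 6.59 ± 0.15 at ZT4 (adjusted p = 0.0042). E2f1, a transcription factor that switches on S phase genes, averaged 7.84 ± 0.15 at ZT16 and 7.35 ± 0.11 at ZT4 (adjusted p = 0.00179; SD, n = 4 each). The remaining 8 rises, Cdt1, Mcm5, Gins1, Tyms, Chaf1b, Lig1, Tk1 and Exo1, lay between 0.48 and 0.88. Pcna, the sliding clamp, differed by 0.17 and Ccne1, a G1/S cyclin and the only negative member, by -0.06, and neither passed. The E2F site TTTGGCGC, searched on both strands, lay in 112 of the 13514 promoter windows and in 6 of 27 windows of this list, those of Cdt1, Dtl, Mcm3, Mcm5, Mcm6 and Pola1, of which Cdt1, Mcm5 and Pola1 rose. The list count was 9 without ZT16 replicate 4, 8 without ZT4 replicate 1 and 8 with the 8 arrays alone, and in each fit 0 fell. In whole samples, more cells in S phase and more RNA per cell cannot be told apart.

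Mitotic genes did not rise with the replication genes. Of 29 measured genes of G2 and mitosis, 0 rose and 4 fell (13.8% lower, against 1.72% of all genes), with a median of -0.10. Cdc20, which activates the anaphase-promoting complex, read 7.64, 7.28, 7.46 and 7.48 at ZT16, against 7.99, 8.28, 8.12 and 8.12 at ZT4, without overlap (fall of -0.67, adjusted p = 0.0178). Ccnb2, a mitotic cyclin, fell by 0.60 (adjusted p = 0.0191), Cenpe, a kinetochore motor, by 0.42 (adjusted p = 0.0262), and Kif23, a motor of cell division, by 0.81 (adjusted p = 0.0345), with overlapping arrays in all 3. Mki67 and Top2a, common markers of cycling cells, differed by -0.06 and 0.18 and did not pass. The 4 calls are fragile: between 1 and 2 were left without ZT16 replicate 1, 2 or 3, without ZT4 replicate 1, 2 or 4, or with the 8 arrays alone. Cenpe was also lost without ZT4 replicate 3. Cdkn3, which encodes a phosphatase of cyclin-dependent kinases, was among the 15 largest falls at -1.18, with arrays of 5.86, 5.99, 6.03 and 5.72 at ZT16, against 7.30, 6.88, 7.00 and 7.14 at ZT4. Its adjusted p of 0.0416 became 0.0621 to 0.106 when any 1 of the 8 arrays was left out. Of 13 G1 cyclins and cell cycle inhibitors, 0 passed (against 4.13% of all genes). Ccnd1, the gene of cyclin D1, had non-overlapping arrays and a difference of 0.33 (adjusted p = 0.144).

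Repair and p53 genes split. Msh6, of mismatch repair, rose by 0.45 (adjusted p = 0.0268) and Fanci, of crosslink repair, by 0.30 (adjusted p = 0.0236). They were 2 of 11 members (18.2%, against 2.41% of all genes), with 0 falls. Both calls were lost without ZT16 replicate 2 or 4 or ZT4 replicate 4, at adjusted p of 0.0526 to 0.0927. Among 18 p53 targets and DNA damage genes, 3 rose and 3 fell (16.7% each way, against 2.41% and 1.72% of all genes). Sesn1, a stress-induced inhibitor of mTORC1, read 10.74, 10.44, 10.39 and 10.38 at ZT16, against 9.64, 9.67, 10.04 and 9.65 at ZT4 (0.74 ± 0.11 SE, adjusted p = 8.66e-05). Its relative Sesn2 moved the opposite way, at 8.03, 8.32, 8.50 and 8.43 at ZT16, against 9.45, 9.28, 9.19 and 9.58 at ZT4 (-1.06 ± 0.13 SE, adjusted p = 9.21e-06). Neither sestrin's arrays overlapped. Gadd45b, a stress sensor gene, read 9.35, 9.26, 9.36 and 9.74 at ZT16, against 10.67, 10.31, 10.38 and 10.32 at ZT4 (-0.99, adjusted p = 1.35e-05), and Gadd45g fell by 0.49 (adjusted p = 0.0296). Polk, a translesion polymerase, and Ddb2, which recognises ultraviolet damage, rose by 0.49 and 0.43. With the mean of each gene's probe sets, Polk and Ddb2 no longer passed (adjusted p = 0.0686 and 0.0588). Gadd45g was lost without ZT16 replicate 2 or 3 or ZT4 replicate 2 or 3 (adjusted p of 0.0789 to 0.105), and Ddb2 without ZT16 replicate 3 or ZT4 replicate 4 (adjusted p = 0.063 and 0.0544). Trp53inp1, a p53-induced gene that was no list member, was among the 15 largest rises at 1.21, with 11.70, 11.38, 10.77 and 10.85 at ZT16, against 9.81, 9.99, 10.02 and 10.03 at ZT4.

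Cholesterol synthesis was the list with the largest share of falls among those of 10 or more measured genes. All 17 measured genes of cholesterol synthesis and uptake had a negative difference, 9 fell and 0 rose (52.9% lower, against 1.72% of all genes), and the median was -0.49. Sqle, squalene epoxidase, read 6.66, 6.89, 7.74 and 6.62 at ZT16, against 8.19, 8.42, 8.46 and 8.76 at ZT4, a fall of -1.48 ± 0.30 (SE), 2.78-fold lower (adjusted p = 0.00265). Idi1, which makes an isoprenoid building block, read 6.36, 6.71, 7.73 and 6.37 at ZT16, against 8.11, 7.83, 7.65 and 8.47 at ZT4 (-1.22, adjusted p = 0.00754). Replicate 3 was the highest of the ZT16 arrays for both, and for Idi1 it overlapped the ZT4 arrays. Insig1, a sterol sensor that holds the SREBP factors back, read 8.05, 8.08, 8.80 and 7.66 at ZT16 and 9.12, 9.33, 8.60 and 9.56 at ZT4, with overlap (adjusted p = 0.00578). Fdps, which makes farnesyl diphosphate, read 7.47, 7.25, 8.00 and 7.56 at ZT16, against 8.11, 8.55, 8.63 and 8.19 at ZT4, without overlap (-0.80, adjusted p = 0.0148).

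Fdft1, squalene synthase, averaged 7.79 ± 0.10 at ZT16 and 8.28 ± 0.21 at ZT4, and Mvk, mevalonate kinase, 8.74 ± 0.13 at ZT16 and 9.12 ± 0.17 at ZT4 (SD, n = 4 each; adjusted p = 0.00395 and 0.0146). Sc5d, Cyp51 and Mvd, enzymes of the same route, fell by 0.81, 0.60 and 0.51. Srebf2, the gene of the main activator of the pathway, differed by -0.33 and did not pass (adjusted p = 0.233), nor did Hmgcs1 at -0.29 (adjusted p = 0.437). Without ZT16 replicate 1 the count of falls was 5, and with the 8 arrays alone it was 2. Fdps and Mvk were also lost without ZT4 replicate 3, and Mvk with the mean of its probe sets. Of 16 genes of fatty acid synthesis and desaturation 0 passed (against 4.13% of all genes), with a median of -0.05. Scd1, a fatty acid desaturase, averaged 10.62 ± 0.17 at ZT16 and 10.87 ± 0.20 at ZT4 (SD, n = 4 each; adjusted p = 0.119).

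**Figure D2:**
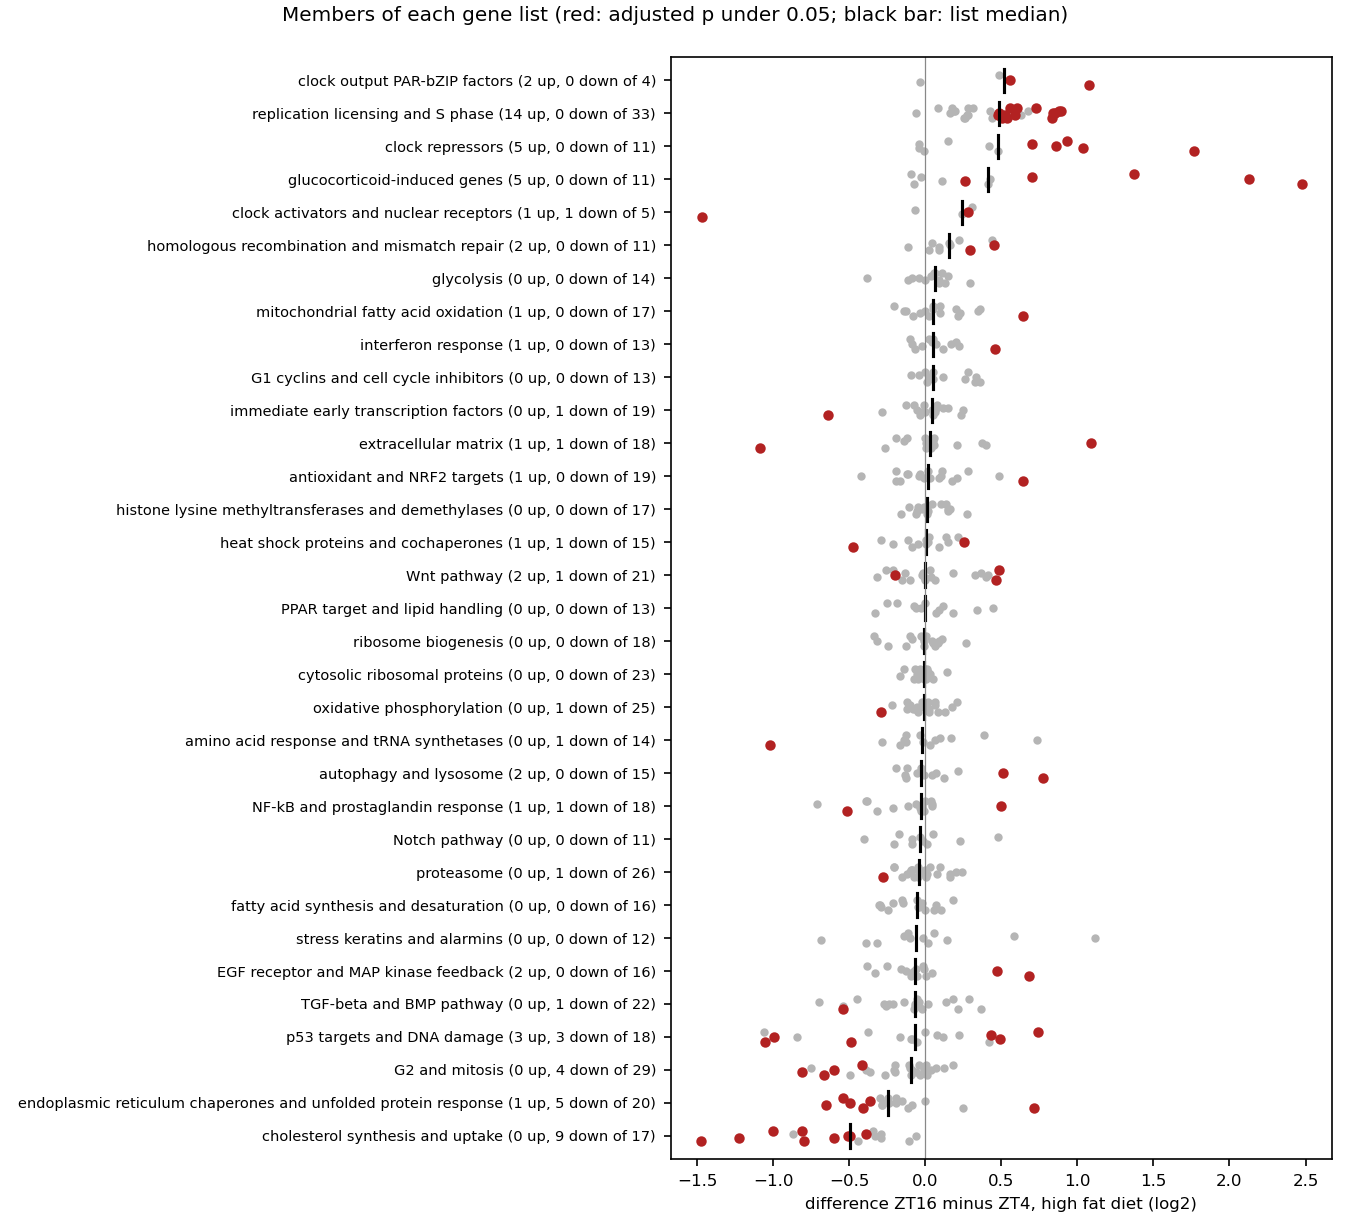
Difference ZT16 minus ZT4 on the high fat diet (log2) of each measured member of 33 gene lists, ordered by list median (black bar); red points passed at an adjusted p under 0.05 and grey points did not. Up and down in the labels count the members that passed; replication genes lie to the right and cholesterol genes to the left of 0, while ribosomal protein, proteasome and oxidative phosphorylation genes cluster at 0.

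Chaperones of the endoplasmic reticulum, which fold secreted and membrane proteins, were lower at ZT16. Of 20 measured genes of this list 5 fell and 1 rose (25% lower, against 1.72% of all genes), with a median of -0.24. Hspa5, the chaperone BiP, read 8.45, 8.62, 8.96 and 8.71 at ZT16, against 9.54, 9.26, 8.99 and 9.57 at ZT4, a 1.58-fold fall (adjusted p = 0.00558). Hsp90b1, the chaperone GRP94, read 10.95, 10.84, 10.98 and 11.07 at ZT16, against 11.46, 11.46, 11.45 and 11.45 at ZT4 (-0.49 ± 0.07 SE, adjusted p = 2.8e-05). Calr, calreticulin, read 10.42, 10.38, 10.58 and 10.77 at ZT16, against 11.20, 11.10, 11.14 and 10.88 at ZT4 (-0.54 ± 0.10 SE, adjusted p = 0.000773). All 3 had every ZT16 array below every ZT4 array. Creld2, a secreted stress protein gene, and Pdia6, a disulfide isomerase, fell by 0.41 and 0.37 (adjusted p = 0.0126 and 0.0115), again without overlap. The exception was Herpud1, of protein degradation at the endoplasmic reticulum, which rose by 0.71 ± 0.09 (SE; adjusted p = 1.35e-05), with 10.89, 10.68, 10.50 and 10.52 at ZT16, against 9.84, 10.08, 10.07 and 9.75 at ZT4. The regulators Xbp1, Atf4, Ddit3 and Atf3 differed by -0.28, -0.28, -0.19 and 0.00, and none passed. Creld2 was lost without ZT16 replicate 1 (adjusted p = 0.0866) or ZT4 replicate 2 (0.0519), Pdia6 without ZT16 replicate 2 (0.0644), and with the 8 arrays alone 2 genes of the list fell.

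The 5 chaperone genes that fell all carried the endoplasmic reticulum stress element in the promoter window, that is CCAAT, any 9 bases, then CCACG, on either strand. It lay in 20 of the 13514 windows (0.148%), in 5 of 222 windows of falling genes (2.25%) and in 0 of 327 of rising genes. Those 5 are the same chaperone genes, so no other falling gene with a window carried the element. In the list it lay in 7 of 18 windows, and the other 2, those of Canx and Dnajc3, belong to genes that did not pass (-0.11 and 0.25). This motif was added to the search after the values were seen. The stretches below show it in capitals with 30 flanking bases on the gene's strand, where the element reads either as above or as its reverse complement, at chr2:34771995-34772073 (Hspa5), chr10:86705503-86705686 (Hsp90b1, minus strand), chr8:84847045-84847123 (Calr, minus strand), chr12:17266461-17266539 (Pdia6) and chr15:88819490-88819568 (Creld2), all in GRCm38.p6.
Hspa5: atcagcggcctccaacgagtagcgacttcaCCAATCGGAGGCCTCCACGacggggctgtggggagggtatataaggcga
Hsp90b1: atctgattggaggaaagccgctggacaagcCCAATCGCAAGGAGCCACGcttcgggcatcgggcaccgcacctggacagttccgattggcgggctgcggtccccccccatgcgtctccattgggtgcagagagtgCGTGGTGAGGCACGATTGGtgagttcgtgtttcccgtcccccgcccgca
Calr: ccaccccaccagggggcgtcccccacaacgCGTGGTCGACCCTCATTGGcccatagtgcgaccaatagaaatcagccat
Pdia6: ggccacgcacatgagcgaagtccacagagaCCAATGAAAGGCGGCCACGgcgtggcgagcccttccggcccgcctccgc
Creld2: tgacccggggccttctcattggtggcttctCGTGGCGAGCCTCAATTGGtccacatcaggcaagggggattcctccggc
Hsp90b1 carried 2 elements, and the other 4 carried 1 each.

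Heat shock genes of the cytosol mostly did not pass. Of 15 members 1 rose and 1 fell (6.67% each way, against 2.41% and 1.72% of all genes), with a median of 0.01. Hspa1b, an inducible Hsp70, read 10.63, 10.69, 10.82 and 10.82 at ZT16, against 11.34, 11.19, 11.11 and 11.22 at ZT4 (-0.48 ± 0.07 SE, adjusted p = 5.98e-05), without overlap; it has a near-identical neighbour, Hspa1a, which the probes may not separate. Rbm3, a cold-induced RNA-binding protein gene, rose by 0.26 (adjusted p = 0.046), a call lost when any array but ZT16 replicate 3 was left out (adjusted p of 0.0643 to 0.173). Chac1, a glutathione-degrading enzyme of the amino acid response, was the 1 of 14 members of its list that passed, with 4.93, 5.30, 5.55 and 4.83 at ZT16, against 6.11, 5.84, 5.57 and 7.16 at ZT4 (-1.02, adjusted p = 0.00511). Its ZT16 replicate 3 and ZT4 replicate 3 almost touched.

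Differentiation and barrier genes moved both ways. Of 26 suprabasal genes 1 rose and 3 fell, with a median of -0.10. These are 3.85% and 11.5%, against 2.41% and 1.72% of all genes. Tgm3, a transglutaminase that crosslinks the cornified envelope, read 9.87, 10.33, 9.85 and 9.86 at ZT16, against 9.15, 8.64, 8.84 and 8.92 at ZT4 (1.09 ± 0.17 SE, adjusted p = 0.000175). Sprr1a, a cornified envelope precursor, read 9.15, 10.70, 10.52 and 10.35 at ZT16, against 11.45, 11.64, 11.14 and 11.45 at ZT4 (-1.24 ± 0.33 SE, adjusted p = 0.0251). Neither overlapped between the hours, and replicate 1 was the lowest ZT16 array of Sprr1a. Dmkn and Sbsn, genes of secreted proteins of the upper epidermis, fell by 0.26 and 0.39 (adjusted p = 0.00248 and 0.019). Sbsn and Sprr1a were lost without ZT16 replicate 1 (adjusted p = 0.111 and 0.151), which left 1 fall, and 0 falls passed with the 8 arrays alone. Sbsn was lost too without ZT4 replicate 3, and Sprr1a without ZT4 replicate 1, 2 or 4. The mean level of the list was 8.60 to 8.96 at ZT16 and 8.85 to 9.04 at ZT4, and Krt1 and Krt10 differed by -0.10 and -0.08; the part of more or fewer differentiating cells in these results was not tested. Ehf, an ETS factor of differentiating epithelia, was the largest fall of all, with 6.29, 6.91, 7.06 and 6.83 at ZT16, against 8.94, 8.26, 8.10 and 8.69 at ZT4, 3.30-fold lower (adjusted p = 0.000175). Cldn4, a tight junction claudin, fell by 1.22 (adjusted p = 0.00302). Of 12 stress keratins and alarmins 0 passed, among them Krt6a at 1.12 (adjusted p = 0.146), with arrays spread from 7.31 to 8.78 at ZT16 and from 6.47 to 7.49 at ZT4.

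Among hair follicle bulge genes 1 of 14 rose and 1 fell (7.14% each way, against 2.41% and 1.72% of all genes). Sox9, a follicle stem cell factor, read 8.24, 8.91, 9.36 and 8.93 at ZT16, against 9.85, 9.88, 9.77 and 9.80 at ZT4, without overlap (-0.97, adjusted p = 0.00228). Npnt, which encodes the matrix protein nephronectin, rose by 0.86 (adjusted p = 0.0388), a call lost without ZT16 replicate 2, 3 or 4 or ZT4 replicate 2 or 3 (adjusted p of 0.0706 to 0.12). The Npnt call was lost too with the mean of its probe sets. Of 18 extracellular matrix genes, Efemp1, a fibulin, rose and Timp3, an inhibitor of matrix metalloproteinases, fell (5.56% each way). Timp3 read 8.06, 8.53, 8.04 and 8.13 at ZT16, against 9.37, 9.23, 8.70 and 9.82 at ZT4 (-1.09 ± 0.16 SE, adjusted p = 5.98e-05). Efemp1 read 8.67, 8.02, 7.82 and 8.03 at ZT16, against 7.57, 6.80, 6.76 and 7.05 at ZT4 (1.09 ± 0.29 SE, adjusted p = 0.0232). Neither matrix gene overlapped. Efemp1 was lost without ZT16 replicate 1 or ZT4 replicate 2, 3 or 4 (adjusted p of 0.0512 to 0.11).

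Single members of signalling lists passed. Of all genes, 2.41% were higher and 1.72% lower. The shares were 9.52% higher and 4.76% lower for Wnt, 4.55% lower for TGF-beta and BMP, and 12.5% higher for the EGF receptor list. In the Wnt list, Fzd6, a receptor, rose by 0.46 (adjusted p = 0.0015) and Sfrp1, a secreted Wnt inhibitor, by 0.48 (adjusted p = 0.0309), while Nkd1, an inhibitor inside the cell, fell by 0.20 (adjusted p = 0.0166), 3 of 21 members in all. Sfrp1 held a narrow range of 9.71 to 9.75 at ZT16 and read 9.14 to 9.36 at ZT4, yet its adjusted p became 0.0520 to 0.0915 without any 1 array other than ZT4 replicate 3. Nkd1 was lost without ZT16 replicate 1 (0.0709) or ZT4 replicate 4 (0.0770), and with the mean of its probe sets (0.327). Fst, the activin trap follistatin, fell by 0.54 (adjusted p = 0.00131), 1 of 22 members of the TGF-beta and BMP list. Spry2 and Spred1, brakes on receptor tyrosine kinase signalling, rose by 0.68 and 0.47 (adjusted p = 0.0123 and 0.0387), 2 of 16 members of the EGF receptor list. Without ZT16 replicate 1 both were lost (adjusted p = 0.0688 and 0.131). Spry2 was also lost without ZT4 replicate 4, and Spred1 without ZT16 replicate 2 or ZT4 replicate 1, 2 or 3. Irs1, the insulin receptor substrate, was among the 15 largest rises, with 9.22, 9.03, 8.84 and 8.93 at ZT16, against 8.32, 7.86, 7.62 and 7.84 at ZT4 (1.09 ± 0.19 SE, adjusted p = 0.000773). Its lowest ZT16 array lay above its highest ZT4 array.

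Of 18 genes of the NF-kB and prostaglandin response, Ptges, which makes prostaglandin E2, rose by 0.50 (adjusted p = 0.0163) and Relb, an NF-kB subunit, fell by 0.52 (adjusted p = 0.00308). Each is 5.56% of the list, against 2.41% of all genes higher and 1.72% lower. Ptges was lost without ZT16 replicate 1 or ZT4 replicate 3 (adjusted p = 0.0523 and 0.0719). Ier3, an early response gene, was the 1 of 19 immediate early genes that passed, at 9.83, 10.34, 10.26 and 10.24 at ZT16, against 10.95, 10.97, 10.39 and 10.94 at ZT4 (-0.64, adjusted p = 0.00749). Its ZT4 replicate 3 lay below the other ZT4 arrays, and without ZT16 replicate 1 its adjusted p was 0.0544.

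Energy metabolism lists held few calls, where 2.41% of all genes were higher and 1.72% lower. Shares were 4% lower for oxidative phosphorylation and 5.88% higher for mitochondrial fatty acid oxidation. Of 25 genes of oxidative phosphorylation 1 fell, Ndufb3, a subunit of complex I, at -0.29 (adjusted p = 0.0335), a call lost without ZT16 replicate 1 or 4 or ZT4 replicate 1, 3 or 4 (adjusted p of 0.0616 to 0.151). Of 17 genes of mitochondrial fatty acid oxidation 1 rose, Slc25a20, the carnitine-acylcarnitine carrier, at 0.64 (adjusted p = 0.0143), with 9.43, 8.92, 8.78 and 8.49 at ZT16, against 8.40, 8.03, 8.20 and 8.42 at ZT4. It was lost without ZT16 replicate 1 (0.103) or ZT4 replicate 2 (0.0645), and with the mean of its probe sets. Of 14 glycolysis genes 0 passed. Hk2, a hexokinase, averaged 7.94 ± 0.17 at ZT16 and 8.33 ± 0.12 at ZT4 (SD, n = 4 each), without overlap but at adjusted p = 0.135. Of 23 cytosolic ribosomal protein genes 0 passed. In the autophagy and lysosome list, Tfeb, the master factor of lysosomal genes, and Bnip3, a mitophagy receptor, rose by 0.51 and 0.77 (adjusted p = 0.00408 and 0.00301). They were 2 of 15 members (13.3%, against 2.41% of all genes). Sod2, the mitochondrial superoxide dismutase, averaged 10.60 ± 0.13 at ZT16 and 9.96 ± 0.03 at ZT4 (SD, n = 4 each; adjusted p = 2.23e-05) and was the 1 of 19 antioxidant genes that passed. Irf9, an interferon response factor, rose by 0.46 (adjusted p = 0.0383), 1 of 13, and Psmd1, a proteasome subunit, fell by 0.28 (adjusted p = 0.00592), 1 of 26. The Irf9 arrays overlapped, and its call was lost in at least 1 fit with 1 array left out. With the 8 arrays alone neither Irf9 nor Psmd1 passed. In the PPAR target, Notch, ribosome biogenesis and histone methylation lists 0 members passed. Sod2, Irf9 and Psmd1 are named after their values were seen.

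The remaining genes among the 15 largest rises were Slc43a1, a large neutral amino acid transporter (2.79-fold), Arrdc3, an alpha-arrestin (2.71-fold), Serpinb7, a serine protease inhibitor (2.62-fold), Tent5b, a nucleotidyltransferase (2.42-fold), Adarb1, an RNA-editing deaminase (2.39-fold), Spock2, a matrix proteoglycan (2.26-fold), and Ramp3, a receptor activity-modifying protein (2.22-fold). All 7 had non-overlapping arrays and adjusted p between 5.98e-05 and 0.00516. The 4 Serpinb7 arrays lay between 8.53 and 9.02 at ZT16, against 7.43 to 7.49 at ZT4. The remaining largest falls were Lipg, endothelial lipase (2.57-fold), Tsc22d2, a relative of Tsc22d3 (2.31-fold), Aadac, a deacetylase of lipids (2.28-fold), Abtb2 (2.22-fold), Cyp1b1, a cytochrome P450 (2.20-fold), Ank, of pyrophosphate export (2.14-fold), and Dennd2c (2.11-fold). Their arrays were less cleanly apart, since Tsc22d2, Abtb2, Ank and Dennd2c overlapped between the hours. Each of the 7 lost its call when ZT16 replicate 1 was left out, at adjusted p of 0.0503 to 0.186. Tsc22d2 read 8.25, 9.25, 9.24 and 8.82 at ZT16 and 10.53, 10.02, 9.19 and 10.66 at ZT4, so it ran against its relative Tsc22d3.

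The 2 hours were also seen against the other 4 sampled times of the high fat diet, which are 4 h apart. Of the 412 rises, 229 had their highest of 6 group means at ZT16, 117 at ZT12, and 219 their lowest at ZT4, with 91 at both extremes. Of the 294 falls, 171 were lowest at ZT16, 154 highest at ZT4, and 65 both. These genes were called for their difference between the same ZT16 and ZT4 arrays, which favours extremes at these hours. A called rise could not top at ZT4, nor a called fall at ZT16, and no share over all genes stands beside these counts. Per2 had group means of 6.57, 6.79, 6.95, 7.82, 8.55 and 7.51 from ZT0 to ZT20, so ZT16 was its top. Tef, with 8.15, 8.64, 9.73, 10.12, 9.72 and 8.95 at the same times, and Mcm2, with 7.13, 7.59, 7.75, 8.84, 8.48 and 7.86, were already at their top at ZT12. Arntl, with 8.57, 9.15, 6.97, 5.83, 7.68 and 9.09, was on its way up at ZT16, and Hsp90b1, with 11.51, 11.45, 11.23, 11.27, 10.96 and 11.61, had its lowest mean there. ZT8 rests on 2 arrays, and these orders carry no test.

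**Figure D3:**
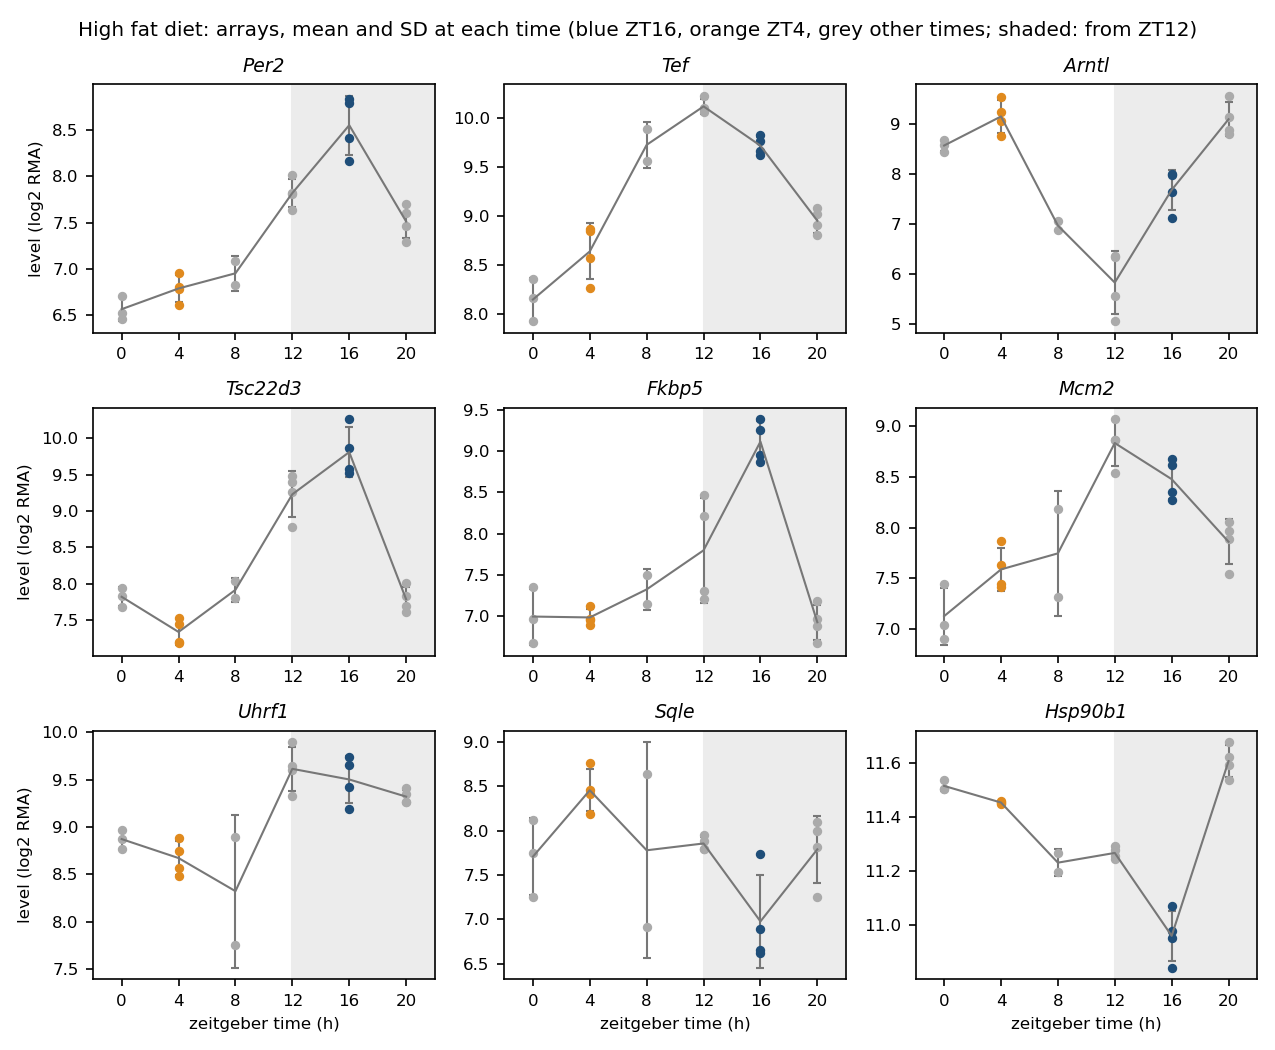
Log2 RMA level of 9 genes in every high fat array across zeitgeber time in h, with a line through the group means and bars of SD (n = 2 at ZT8, 3 at ZT0, 4 at the other times); ZT16 is blue, ZT4 orange, other times grey, and the shaded part starts at ZT12. Per2, Tsc22d3 and Fkbp5 top at ZT16, Tef and Mcm2 at ZT12, and Sqle and Hsp90b1 are lowest at ZT16.

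On the control diet the same hours gave 586 higher genes (3.43%) and 488 lower ones (2.85%). After centring on all probe sets the split was 462 higher and 590 lower, and without control ZT4 replicate 1 the control count was 505 in all. It was 666 to 690 without control ZT16 replicate 1 or 3 or control ZT4 replicate 2 or 3. Of the high fat rises, 134 also rose on the control diet, which is 32.5% of the high fat rises and 22.9% of the control ones. Of the falls, 71 were shared, 24.1% of the high fat and 14.5% of the control falls, and 7 genes were called in opposite directions. Passing on one diet only is no evidence of a difference, which was tested as such: 81 genes (0.474%) had a diet difference of the night minus day change, 44 more positive and 37 more negative on the high fat diet, and 2195 had an unadjusted p under 0.05. Leaving out control ZT4 replicate 2 gave 29 such genes, leaving out control ZT16 replicate 1 or 3, control ZT4 replicate 1 or high fat ZT4 replicate 1 or 2 gave 42 to 49, and array weights gave 170. Of the 706 high fat calls, 33 were among these 81. In 69 of the 81 the 2 diets' differences had opposite signs, and 46 of the 81 were called on the control diet alone, against 24 on the high fat diet alone.

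Chaperone genes were among those with the smallest p of the diet difference. Creld2 averaged 9.63 ± 0.19 at ZT16 and 10.04 ± 0.14 at ZT4 on the high fat diet (SD, n = 4 each), and 10.47 ± 0.11 at ZT16 (n = 4) and 9.82 ± 0.12 at ZT4 (n = 3) on the control diet. It therefore fell on one diet and rose on the other, by 0.65 in control mice (adjusted p = 0.000423), and the difference between diets was -1.06 ± 0.15 (SE, adjusted p = 0.000651). Hsp90b1 fell on the high fat diet and differed by 0.00 on the control diet (diet difference -0.50, adjusted p = 0.0144). Hspa1b, Hspa4 and Hsph1, of the Hsp70 and Hsp110 families, had diet differences of -0.68, -0.40 and -1.06 (adjusted p = 0.000899, 0.000899 and 0.00337). Hsph1 differed by 0.09 on the high fat diet and rose by 1.15 on the control diet. Tomm34, a cochaperone of mitochondrial import, fell by 0.38 on the high fat diet and rose by 0.25 on the control diet (diet difference -0.63, adjusted p = 0.000958).

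Among the 15 largest rises, 5 were larger on the high fat diet by this test, where 0.474% of all genes had a diet difference. The 15 largest rises and falls were picked for their high fat differences, from the same arrays. That favours larger differences on that diet. Tsc22d3 rose on both diets, by 2.48 on the high fat and 1.24 on the control diet, with control means of 8.35 ± 0.43 at ZT16 (n = 4) and 7.11 ± 0.10 at ZT4 (n = 3); the diet difference was 1.24 ± 0.29 (SE, adjusted p = 0.0405). Serpinb7, Tent5b, Ramp3 and Tgm3 had control differences of 0.07, -0.50, -0.14 and -0.07, none of which passed, and diet differences of 1.32, 1.77, 1.29 and 1.16 (adjusted p = 0.0317, 0.0345, 0.0345 and 0.0255). Timp3 was the 1 gene of the 15 largest falls that passed this test, at -0.08 on the control diet and a diet difference of -1.01 (adjusted p = 0.0345). Ciart rose on the high fat diet and differed by 0.12 on the control diet (diet difference 0.74, adjusted p = 0.0129). Sesn1 differed by -0.19 on the control diet (diet difference 0.94, adjusted p = 0.00401).

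Most of the clock, replication and cholesterol changes were not distinguished between diets. Fkbp5 rose by 1.13 on the control diet, and its diet difference missed the threshold (adjusted p = 0.277). Per2 rose by 1.58 on the control diet, Per3 by 1.39 and Tef by 1.25, with diet differences of 0.18, -0.36 and -0.17 (adjusted p = 0.749, 0.46 and 0.713). Of 33 replication genes 23 rose on the control diet (against 3.43% of all genes), with a median of 0.66. Of the 33, 0 had a diet difference that passed, against 0.474% of all genes. For cholesterol genes the control diet gave 5 falls of 17 (against 2.85% of all genes) and a median of -0.49, again with 0 diet differences. At the share of all genes, lists of 33 or 17 genes would usually hold 0, so these counts say little about either list. The chaperone list had a median of 0.02 on the control diet, with 2 falls and 1 rise. Of its 20 members 2, Creld2 and Hsp90b1, passed the test of the diet difference. Arntl fell by 1.47 on the high fat diet and differed by -0.50 on the control diet, and the diet difference of -0.96 ± 0.42 (SE) did not pass (adjusted p = 0.313). A p that misses the threshold does not show that the diets acted alike.

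**Figure D4:**
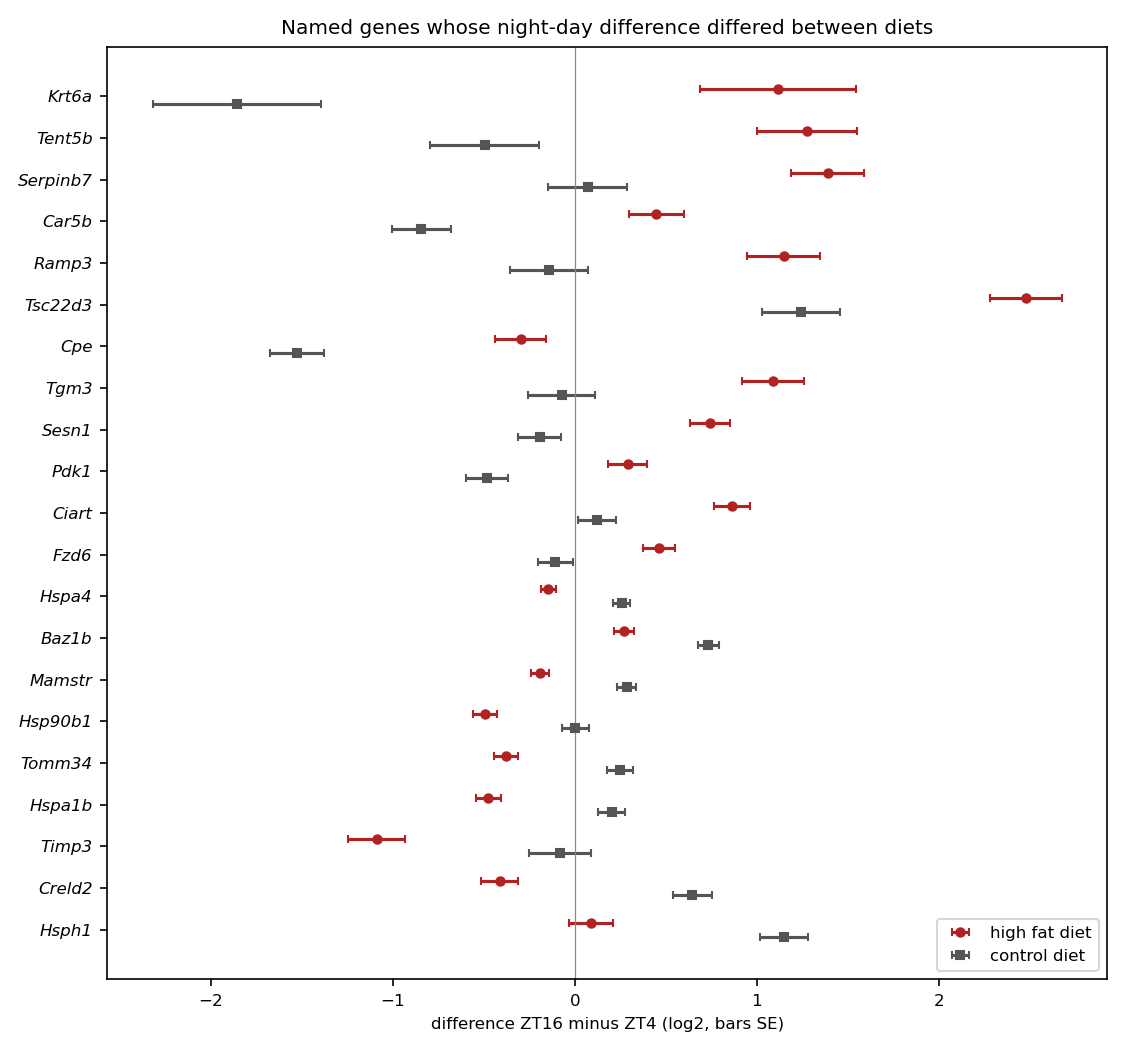
Difference ZT16 minus ZT4 (log2, bars SE) on the high fat diet (red circles) and the control diet (grey squares) for the 21 named genes whose diet difference passed at an adjusted p under 0.05, ordered by its size. Krt6a and Tent5b at the top are more positive on the high fat diet, and Hsph1 and Creld2 at the bottom more negative.

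Few markers of other cells passed between the hours, where 2.41% of all genes were higher and 1.72% lower. At those shares lists this short hold few calls or 0, so the counts say little about these cells. Across the lists for sebaceous gland, melanocytes, T cells, macrophages, mast cells, fibroblasts, endothelium, adipocytes, muscle, nerve, erythrocytes and Merkel cells, 0 members passed. Of 12 hair matrix and inner root sheath genes 1 rose, the hair keratin gene Krt31 at 0.21 (adjusted p = 0.0347), and of 8 upper follicle genes 0 passed. In the Langerhans list 1 of 9 fell, H2-Ab1 at -0.70 (adjusted p = 0.0279), while Cd207, the defining Langerhans marker, differed by -0.18 (adjusted p = 0.433); the list mean was 7.49 to 7.72 at ZT16 and 7.67 to 7.87 at ZT4. Krt31 and H2-Ab1 each lost the call in at least 1 fit with 1 array left out, and with the 8 arrays alone. The part of these other cells in the other results was not tested.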

How the data were processed

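The authors deposited 1 table of log2 values made with RMA, per the submitters' processing notes; the version of RMA was not given in those sources. Per the labels' protocols, 25 ng of RNA was amplified for 17 cycles. Of 45141 probe sets, 28898 have 1 gene in the platform annotation and 551 several; 15692 are unnamed here. The probe set with the highest mean stood for each of 17097 genes. The test was limma 3.58.1 in R 4.3.3, with a mean for each of 12 groups over all 41 arrays (29 residual, 2.63 prior degrees of freedom), two-sided, with no filter on low values, checked on simulated data. Array number limits the precision.

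The members and the 51 gene lists (797 genes, 709 measured) were chosen with earlier results of these data known. Genes named were the 15 largest rises and falls, all clock and glucocorticoid genes, up to 6 of each list described, the 10 smallest p of the diet difference, the 10 highest-expressed calls per direction and label markers, passing over predicted genes; others only account for a count. Alternatives were the mean of probe sets, a dim filter, trended robust eBayes, array weights, median centring over all probe sets or tested genes, the contrast's arrays alone, no ZT8, a replicate block and each array left out. Figures used matplotlib 3.10.9.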

Additional observations from a re-analysis of the deposited data

Results flagged for a closer look

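An array far from the other 3 of its group was found in 15 of 278 groups of 4 examined, or 5.4%, and chance alone gives about 1 in 20. Among named genes at ZT16, replicate 1 stood apart for Sesn1 (10.74). Replicate 2 did so for Ccnd1 (11.43), Clock (8.39) and Tgm3 (10.33), replicate 3 for Hsph1 (10.11), and replicate 4 for Car5b (8.67), Tfeb (7.04) and Timeless (7.25). At ZT4, replicate 1 stood apart for Krt15 (11.86), replicate 2 for Klf9 (11.33) and Timeless (6.91), replicate 3 for Ier3 (10.39), Krt14 (12.53) and Sesn1 (10.04), and replicate 4 for Rbm3 (4.71). Timeless and Sesn1 had such an array at both hours.

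The night minus day difference differed between the diets, by the test of that difference, for 21 named genes. It was more positive on the high fat diet for the stress keratin gene Krt6a (2.97), Tent5b (1.77), Serpinb7 (1.32), the mitochondrial carbonic anhydrase gene Car5b (1.29), Ramp3 (1.29), Tsc22d3 (1.24), the prohormone-processing enzyme gene Cpe (1.23), Tgm3 (1.16), Sesn1 (0.94), Pdk1, a kinase that shuts pyruvate dehydrogenase off (0.77), Ciart (0.74) and Fzd6 (0.57). It was more negative for Hsph1 (-1.06), Creld2 (-1.06), Timp3 (-1.01), Hspa1b (-0.68), Tomm34 (-0.63), Hsp90b1 (-0.50), Mamstr, of muscle gene activation (-0.48), the chromatin remodelling gene Baz1b (-0.46) and Hspa4 (-0.40). Values in brackets are diet differences, to which changes on the control diet contribute. Cpe and Car5b did not pass on the high fat diet (-0.30 and 0.45) and passed on the control diet (-1.53 and -0.84). Baz1b rose on both diets, by 0.27 on the high fat and 0.73 on the control diet.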

How the results depend on the processing

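Counts for the high fat diet (706 genes) stayed within 1.5 times under the mean of probe sets, the dim filter, trended robust eBayes, array weights, both centrings and no ZT8 (698 to 882). With the 8 arrays alone 255 genes passed, 71.4% of them higher, against 58.4% in the fit of all arrays. Leaving out 1 array gave 394 to 673, the lowest without ZT16 replicate 1. For the control diet (1074 genes) the 7 arrays alone gave 633, and leaving out 1 array gave 505 to 1112, with 505 to 690 without control ZT16 replicate 1 or 3 or any 1 control ZT4 array. The share of control calls that were higher was 54.6%, and 43.9% after centring on all probe sets. For the diet difference (81 genes), array weights gave 170, the contrast's arrays alone gave 31, and leaving out 1 array gave 29 to 106, with 29 to 49 without control ZT16 replicate 1 or 3, control ZT4 replicate 1 or 2, or high fat ZT4 replicate 1 or 2; 54.3% were more positive, and 68.9% after centring on all probe sets. The causes were not tested, and the smaller fits also held fewer arrays.

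Of 105 named genes that passed on the high fat diet, 42 kept their direction and call under every alternative run, and 61 when any 1 of the 8 arrays was left out. The 8-array fit lost 56. Ccdc6 was the 1 gene that reversed, at -0.038 (adjusted p = 0.851) with the mean of its probe sets. Among 385 called genes with another probe set, 95 had one of opposite sign.

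Replicate numbers did not pair the arrays: deviations of same-numbered arrays correlated at -0.18, -0.02, -0.12 and -0.34. With a replicate block 609 genes passed on the high fat diet, 599 of them shared, 957 on the control diet, and 58 for the diet difference.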

Other observations

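The 10 genes of highest level among those that passed in each direction included Txnip and Tuba1a. Txnip, an inhibitor of thioredoxin and of glucose uptake, read 12.81, 12.53, 12.17 and 12.74 at ZT16, against 11.35, 11.62, 11.97 and 11.17 at ZT4, without overlap, a 2.05-fold rise (limma, adjusted p = 0.00111). Replicate 3 was the lowest array at ZT16 and the highest at ZT4. Klf3, a repressor of the Kruppel-like family, rose by 0.39 (adjusted p = 0.00995), Zfp36l1, which destabilises AU-rich messages, by 0.34 (adjusted p = 0.0107), and Pcbp2, an RNA-binding protein gene, by 0.25 (adjusted p = 0.0066). Klf3 was lost without ZT4 replicate 4 (adjusted p = 0.0663). The other rises of high level were Acpp, Anxa8, Tspan5 and Ccdc6, at 0.31, 0.15, 0.18 and 0.24.

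Among the falls of high level, Tuba1a, an alpha tubulin, read 11.55, 11.50, 11.39 and 11.47 at ZT16, against 11.73, 11.92, 11.92 and 11.85 at ZT4 (-0.38, adjusted p = 0.000175). Cst3, the protease inhibitor cystatin C, fell by 0.33 (adjusted p = 0.000594), the tyrosine kinase gene Src by 0.28 (adjusted p = 0.00643), Cnn2, an actin-binding calponin, by 0.25 (adjusted p = 0.00248), and Sdc4, a heparan sulfate syndecan, by 0.12 (adjusted p = 0.0064). Arrays of the hours did not overlap for any of these 5 genes. Vat1 and Cdc42, a small GTPase gene, fell by 0.23 and 0.12 (adjusted p = 0.0413 and 0.0338). Both lost their call without ZT16 replicate 1 (adjusted p = 0.103 and 0.125), and Anxa8, Tspan5 and Ccdc6 did too (adjusted p = 0.0903, 0.127 and 0.126).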
